A study of Equus caballus with 4 samples.

Results

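The cullins, their exchange factors *cand1* and *cand2*, the RING subunit *rbx1* and the COP9 signalosome subunit *cops5* were examined in differentiating equine satellite cells (ESC). The members are *cul1*, *cul2*, *cul3*, *cul4a*, *cul4b*, *cul5*, *cand1*, *cand2*, *rbx1* and *cops5*, 10 of the 24998 symbols or identifiers in the gene name column of the array. They were chosen by symbol, and every probe that carried one of these symbols was kept, which gave 24 of 43603 probes. Of these 24 probes, 18 were bright enough to be tested, and they covered 9 of the 10 genes.

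ESC are the muscle stem cells that fuse into myotubes, here primary cells from *m. semitendinosus* of young stallions. Cultures were isolated from all horses, and the paper took forward the culture that scored best for viability and fusion. The HMB-treated group was incubated for 24 h, up to day 3 of differentiation, with HMB (50 µM), which cells form from leucine. H2O2 (3 mM) was added for the last 1 h. Control cells were exposed to H2O2 too, but without HMB. HMB RNA (Cy5) and control RNA (Cy3) were hybridized together on each of 4 arrays of 1 slide with the same dye orientation, so treatment and dye cannot be told apart. The study's methods and design give 4 control replicates, whereas the sample labels carry replicate 1 for the control throughout, so whether these were separate RNAs is not settled here. With a single control RNA, the errors below would lack the control's own spread.

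Cullins are the scaffolds of a large family of ubiquitin ligases. One end of a cullin holds *rbx1*, which brings in the ubiquitin-conjugating enzyme, and the other end holds an adaptor with a substrate receptor that selects the protein to be marked. Attachment of the small protein NEDD8 switches the ligase on, the COP9 signalosome removes it through *cops5*, and *cand1* binds the free cullin and lets a new receptor in. Such ligases take part in muscle protein turnover, since *fbxo32* (atrogin-1) is a receptor of *cul1* and several muscle kelch proteins are receptors of *cul3*.

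Expression is given as the log2 ratio of HMB over control, 1 value per array, so a negative value means a lower signal in the HMB-treated group. The SD is over the 4 arrays. Ranges of control and HMB signals are also over the 4 arrays, so their overlap leaves out the pairing of channels that the ratio keeps. A probe was called where limma's adjusted p, corrected over all 24669 tested probes, was 0.05 or less and the fold change (FC) was 1.3 or more. FC is given as the larger over the smaller group. Base numbers are the position at which the 60-base probe starts in its transcript. In a culture, fewer cells of a type and less RNA per cell cannot be told apart.

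The number of spots was 45220 per array. Among the non-control spots, 57.6 to 60.6% were well above background in Cy3 and 55.2 to 61.8% in Cy5. The ratios of the arrays correlated pairwise with r from 0.837 to 0.920 across the tested probes, which are not independent replicates. None of the spots of the 24 probes was saturated or marked as an outlier.

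Of the 8 myogenic markers listed, 7 were on the array, and all 7 were well above background in both channels. Of these, *myf5*, *des*, *myh3*, *ckm* and *acta1* were lower in the HMB-treated group, with log2 ratios from -1.49 to -0.93, while *myod1* (0.32) and *myog* (0.03) were not called. All 4 fibroblast markers on the array were above background, and *pdgfra* (1.49), *thy1* (0.76) and *dcn* (0.77) were higher, whereas *col3a1* was not called on its brightest probe (0.06), although 3 of its 7 probes were called higher (0.39 to 0.42). None of the 4 endothelial markers and neither of the 2 adipocyte markers on the array was well above background in both channels. Of 4 leukocyte markers, *cd14* and *cd68* were above background and *cd68* was higher (0.88), while *cd3e* and *itgam* were above background on no array. These shifts in marker levels stand beside every result below, and their part in those results was not tested.

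Sequences are shown for probes whose relation to one another, or to the splicing of the gene, bears on how the values below are read. The *cul2* probes overlap by 14 bases, given in capitals.
CUL2 base 2174 (chr29:2214862-2214921, plus strand): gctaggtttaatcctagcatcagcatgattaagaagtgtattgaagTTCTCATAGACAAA
CUL2 base 2220 (chr29:2214908-2214967, plus strand): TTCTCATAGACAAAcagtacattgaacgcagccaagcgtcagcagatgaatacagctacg

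All coordinates are those of EquCab1 in the scanner files. The probe of *cul4a* at base 1277 covers 167 bases of the genome with its 60 bases, and the first *cops5* probe covers 2466, so each crosses an intron. The second *cops5* probe starts at the base after the end of the first.
CUL4A base 1277 (chr17:78873296-78873462, plus strand): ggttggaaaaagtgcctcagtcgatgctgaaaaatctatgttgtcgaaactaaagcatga
COPS5 base 1006 (chr9:18262056-18264521, plus strand): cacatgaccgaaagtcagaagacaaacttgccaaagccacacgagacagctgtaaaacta
COPS5 base 1066 (chr9:18264522-18264581, plus strand): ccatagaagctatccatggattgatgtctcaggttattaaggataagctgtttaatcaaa

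The *cand1* and *cand2* probes read paralogous transcripts. Set side by side without gaps, 28 of their 60 bases are identical (46.7%), shown in capitals. Near their start both probes also hold a longer common run at shifted positions, which the capitals do not show. The count without gaps therefore understates how alike the probes are, and no alignment with gaps was made.
CAND1 base 3630 (chr6:79610387-79610446, plus strand): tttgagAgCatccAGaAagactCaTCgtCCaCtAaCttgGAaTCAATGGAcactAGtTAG
CAND2 base 3597 (chr16:4503825-4503884, minus strand): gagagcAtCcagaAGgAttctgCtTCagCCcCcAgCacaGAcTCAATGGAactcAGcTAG

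For *cul4b*, 5 of the 7 probes come from a partial sequence record and have no position in EquCab1. Each starts 1 base after the last, from base 366 to base 370, and all share the 56 bases in capitals, so they are 1 target and not 5.
CUL4B base 366: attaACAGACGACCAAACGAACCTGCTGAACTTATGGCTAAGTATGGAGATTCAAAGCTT
CUL4B base 370: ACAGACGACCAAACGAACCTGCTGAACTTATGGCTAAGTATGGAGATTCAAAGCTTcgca

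On the brightest tested probe of each gene, HMB-treated cells had lower *cul3*, *cul4a* and *cand2* and higher *cul4b* than control cells. *cul1*, *cul2*, *cand1* and *rbx1* were not called, and *cul5* was too dim to test. Only the *cul3* calls held under all 18 alternative ways of processing given below. The *cul3* probes were also the brightest of the called probes, and some of the alternatives pull ratios of dim probes towards 0. Of the 18 tested probes, 7 were called, 2 higher and 5 lower, whereas 28.6% of all tested probes on the array were called, 12.1% higher and 16.4% lower. On the brightest tested probe of each gene, 4 of 9 genes were called, 1 higher and 3 lower, against 28.6% of all symbols, 12.3% higher and 16.3% lower. *cops5* was the fifth gene with a called probe, on the dimmer of its probes alone. The difference had the same sign on all 4 arrays at 10 of the 18 probes, below 0 at 8 (37.4% of all tested probes) and above 0 at 2 (24.1%). The median log2 ratio of the 9 genes was -0.32, between -0.39 and -0.25 on single arrays, and that of all symbols was -0.06. Over the 18 probes, of which 5 belong to *rbx1*, it was -0.10 beside -0.07 for all tested probes. That median was -0.18 without replicate 4, -0.06 without replicate 3 and 0.02 with median centering.

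**Figure D1:**
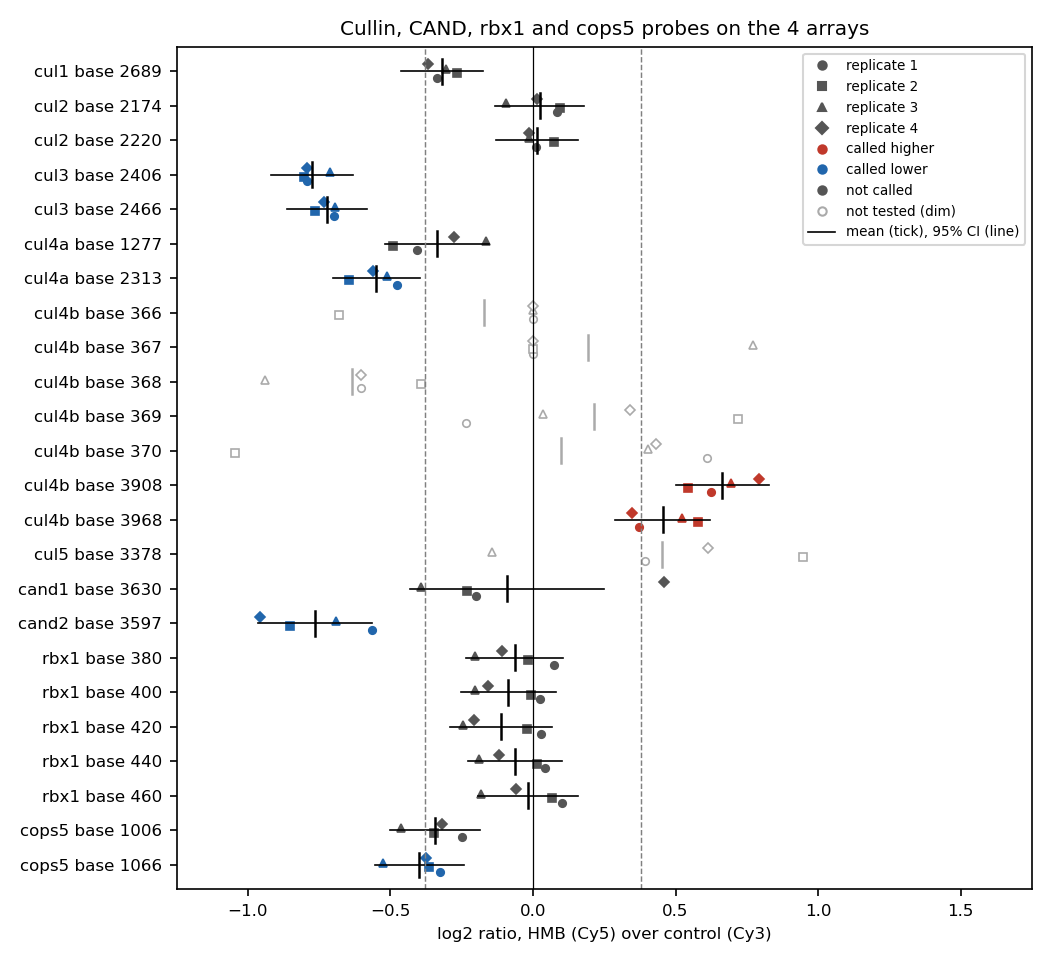
Log2 ratio of HMB (Cy5) over control (Cy3) on the x axis for each of the 24 probes, named by gene and start base. Each point is 1 of the 4 arrays, ticks are means, horizontal lines are 95% confidence intervals of the limma fit for tested probes, and dashed lines mark an FC of 1.3. The *cul3* points lie together between -0.80 and -0.70, the *cul4b* points at bases 3908 and 3968 lie above 0, and replicate 4 of *cand1* (0.46) lies apart from its other replicates.

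Among the scaffolds, *cul3*, which carries BTB domain receptors, fell at both of its probes. Its probe at base 2406 (chr6:13179883-13179942) gave log2 ratios of -0.79, -0.80, -0.71 and -0.79 on replicates 1 to 4. The control signals were 6212 to 7885 and the HMB signals 3557 to 4818, and the groups did not overlap. The mean was -0.78 (SD 0.04, n = 4), an FC of 1.71 (limma, adjusted p = 0.00019).

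The neighbouring probe at base 2466 (chr6:13179823-13179882) shares no base with it and gave -0.70, -0.77, -0.70 and -0.73. Here the control signals were 7031 to 9073 and the HMB signals 4136 to 5601, again without overlap. The mean log2 ratio was -0.72 (SD 0.03, n = 4), an FC of 1.65 (limma, adjusted p = 0.00024). The probes' means differ by 0.05, and both were called under each of the 18 alternative ways of processing, with log2 ratios from -1.26 to -0.65 and from -1.21 to -0.59. Of all tested probes, 4.16% and 4.96% had lower ratios.

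*cul1*, the scaffold of the ligases with F-box receptors, has 1 probe at base 2689 (chr4:90385753-90385812). It gave log2 ratios of -0.34, -0.27, -0.31 and -0.37, so all 4 arrays were below 0, although the control signals (5925 to 7968) and HMB signals (4913 to 6444) overlap. The mean was -0.32 (SD 0.04, n = 4; limma, adjusted p = 0.00623), but the FC of 1.25 was below the threshold and the probe was not called.

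*cul2*, which works with elongins and receptors such as VHL, was not called at either probe. The ratio at base 2174 was 0.08, 0.10, -0.10 and 0.01, with a mean of 0.02 (SD 0.09, n = 4; limma, adjusted p = 0.782). At base 2220 it was 0.01, 0.07, -0.01 and -0.01, with a mean of 0.01 (SD 0.04, n = 4; limma, adjusted p = 0.859). The 95% confidence intervals were -0.13 to 0.18 and -0.13 to 0.16, within an FC of 1.3 in either direction. The sign of neither probe was the same on all arrays.

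*cul4a* and *cul4b* are paralogous scaffolds that hold receptors through the adaptor DDB1. The *cul4a* probe at base 2313 (chr17:78887711-78887770) gave log2 ratios of -0.48, -0.65, -0.51 and -0.56, with control signals of 566 to 748 and HMB signals of 362 to 524 that did not overlap. The mean was -0.55 (SD 0.07, n = 4), so this probe was lower with an FC of 1.46 (limma, adjusted p = 0.00095). The call was lost with limma's treat, which tests against the FC threshold (adjusted p = 0.118), and with normexp background correction (log2 ratio -0.37). Normexp was run with an offset of 50 added to both channels, which pulls the ratios of dim probes towards 0.

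The *cul4a* probe across the intron, at base 1277, gave -0.41, -0.49, -0.16 and -0.28, all below 0. Its control signals were 126 to 150.5 and its HMB signals 89.6 to 128, which overlap. The mean of -0.34 (SD 0.14, n = 4; limma, adjusted p = 0.0128) was an FC of 1.26 and was not called. Without replicate 3 it was -0.39 and was called.

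*cul4b* was higher in the HMB-treated group at both probes that could be tested, which lie end to end on chrUn. At base 3908 (chrUn:41752880-41752939) the log2 ratios were 0.63, 0.54, 0.70 and 0.79, from control signals of 37.7 to 46.1 and HMB signals of 59.8 to 74.7 that did not overlap. The mean was 0.66 (SD 0.11, n = 4), an FC of 1.58 (limma, adjusted p = 0.00061). These signals are well above background by the scanner's flag on every array, but they are low.

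At base 3968 (chrUn:41752940-41752999) the log2 ratios were 0.37, 0.58, 0.52 and 0.35, with a mean of 0.45 (SD 0.11, n = 4) and an FC of 1.37 (limma, adjusted p = 0.00292). Control signals were 45.6 to 58.4 and HMB signals 58.0 to 83.8, and the groups overlap slightly. Both calls were lost with normexp (0.23 and 0.19), without background correction (0.27 and 0.22) and after a shift to the spike-in RNA (0.18 and -0.033). The normexp offset and a background left in place both pull ratios of such low signals towards 0, whatever the RNA levels. The call at base 3968 was also lost with median centering (0.36), with treat and with separate channels.

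The other 5 *cul4b* probes, from base 366 to base 370, were well above background in no channel on any array, so no ratio was tested and no FC is given. Their signals were 3.8 to 14.9 in Cy3 and 5.7 to 18.5 in Cy5. Several of them had been replaced by the scanner software's surrogate for signals at background, and every ratio of exactly 0 had such a value in 1 or both channels. Without the filter on dim probes, the probe at base 368 passed the thresholds at -0.64 with 4 of 4 Cy5 values replaced (limma, adjusted p = 0.0314), opposite in sign to the probes at bases 3908 and 3968.

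*cul5*, the scaffold for receptors of the SOCS box type, has 1 probe at base 3378 (chr7:13865280-13865339) that cleared the background flag on 1 array in Cy3 and on 1 in Cy5. Its control signals were 11.4 to 31.2 and its HMB signals 20.9 to 28.2, which overlap. The log2 ratios were 0.39, 0.95, -0.14 and 0.61, and no test was made.

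**Figure D2:**
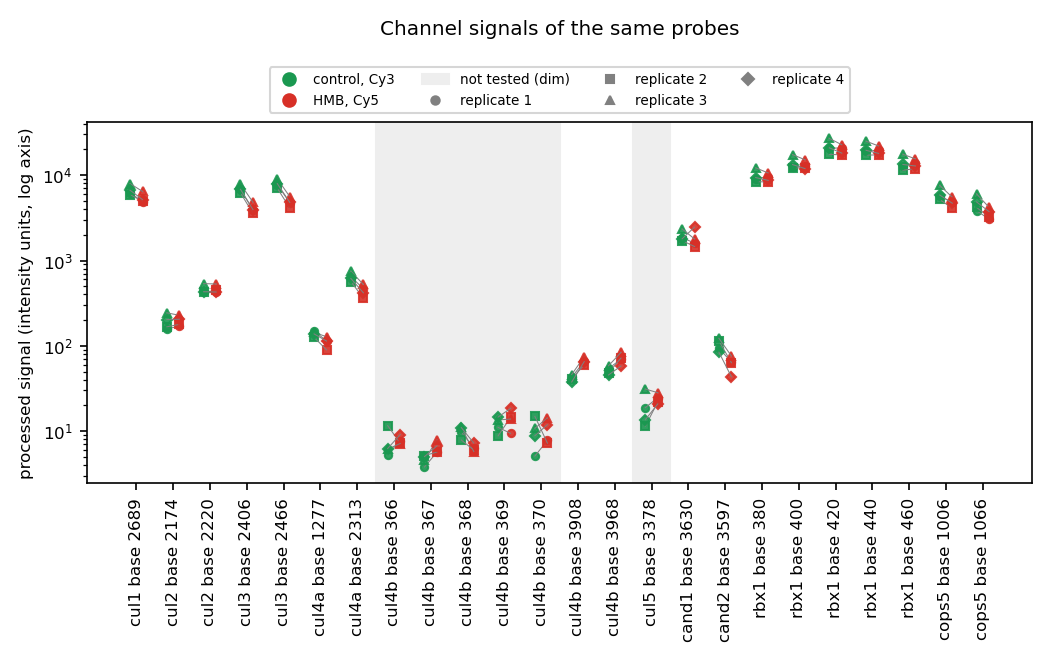
Processed signal of the control (Cy3, green) and HMB (Cy5, red) channels on a log y axis for the 24 probes on the x axis, with grey lines joining the channels of 1 array and grey shading for probes that were not tested. Levels of different probes are not comparable. The *cul3* channels separate clearly (6212 to 9073 in the control, 3557 to 5601 with HMB), whereas the *cul4b* probes at bases 3908 and 3968 lie below 100.

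Of the exchange factors, *cand2*, the paralog of *cand1* that is known for its expression in muscle, was lower in the HMB-treated group. Its log2 ratios at base 3597 were -0.56, -0.85, -0.69 and -0.96, with control signals of 84.2 to 123 and HMB signals of 43.4 to 76.0 that did not overlap. The mean was -0.77 (SD 0.17, n = 4), an FC of 1.70 (limma, adjusted p = 0.00077). The call was lost with normexp (-0.24) and narrowly without background correction (-0.38, an FC just under the threshold). At signals this low, both settings pull the ratio towards 0 by themselves.

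*cand1*, which binds cullins free of NEDD8, gave log2 ratios of -0.20, -0.23, -0.39 and 0.46 at base 3630. Replicates 1 to 3 were below 0 and replicate 4 was above. Its HMB signal in replicate 4 was 2465, and on the other arrays 1457 to 1786. The mean was -0.09 (SD 0.38, n = 4; 95% confidence interval -0.43 to 0.25; limma, adjusted p = 0.623). Without replicate 4 it was -0.27 and without replicate 3 it was 0.0093, and it was called in neither case.

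*rbx1*, the RING subunit shared by most cullins, was not called at any of its 5 probes, which start 20 bases apart from base 380 to base 460 (chr28:37404599-37404738) and share 40 bases with the next. Their means were -0.06, -0.09, -0.11, -0.06 and -0.02, with SDs of 0.11 to 0.14 (n = 4; limma, adjusted p from 0.255 to 0.857). At all 5 probes replicate 1 was the highest (0.02 to 0.10) and replicate 3 the lowest (-0.25 to -0.18), and the probes overlap, so they are not independent. The lowest and highest limits of the 95% confidence intervals were -0.29 and 0.16. Under median centering without lowess all 5 means were above 0 (0.07 to 0.14).

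*cops5*, the subunit of the COP9 signalosome that cleaves NEDD8 from cullins, was below 0 on all 4 arrays at both of its probes. The probe at base 1066 gave -0.33, -0.37, -0.53 and -0.38, from control signals of 3836 to 6043 and HMB signals of 3059 to 4199, which overlap. The mean of -0.40 (SD 0.09, n = 4) was an FC of 1.32 and was called (limma, adjusted p = 0.00374).

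The probe at base 1006, the brighter one, gave -0.25, -0.35, -0.46 and -0.32. Its mean of -0.34 (SD 0.09, n = 4; limma, adjusted p = 0.00661) was an FC of 1.27 and was not called. The probes' means differ by 0.05, and the threshold falls between them. The call at base 1066 was lost under 7 of the 18 alternatives, among them leaving out replicate 3 (-0.36).

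Within genes, the means of the tested probes lay 0.01 apart in *cul2*, 0.05 in *cul3* and *cops5*, 0.09 in *rbx1* and 0.21 in *cul4a* and *cul4b*. The mean SD over arrays of the same probes was 0.06 in *cul2*, 0.04 in *cul3*, 0.09 in *cops5*, 0.12 in *rbx1* and 0.11 in *cul4a* and *cul4b*. No gene had tested probes called in opposite directions. With normexp, 2 of the 18 probes were called, both of *cul3* (14.3% of all tested probes), and without background correction 3, the *cul3* probes and *cul4a* base 2313 (18.0%). Limma's treat left 4, the *cul3* probes, *cul4b* base 3908 and *cand2* (11.4%). After a shift to the spike-in RNA 16 were called, all lower (75.3%).

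**Figure D3:**
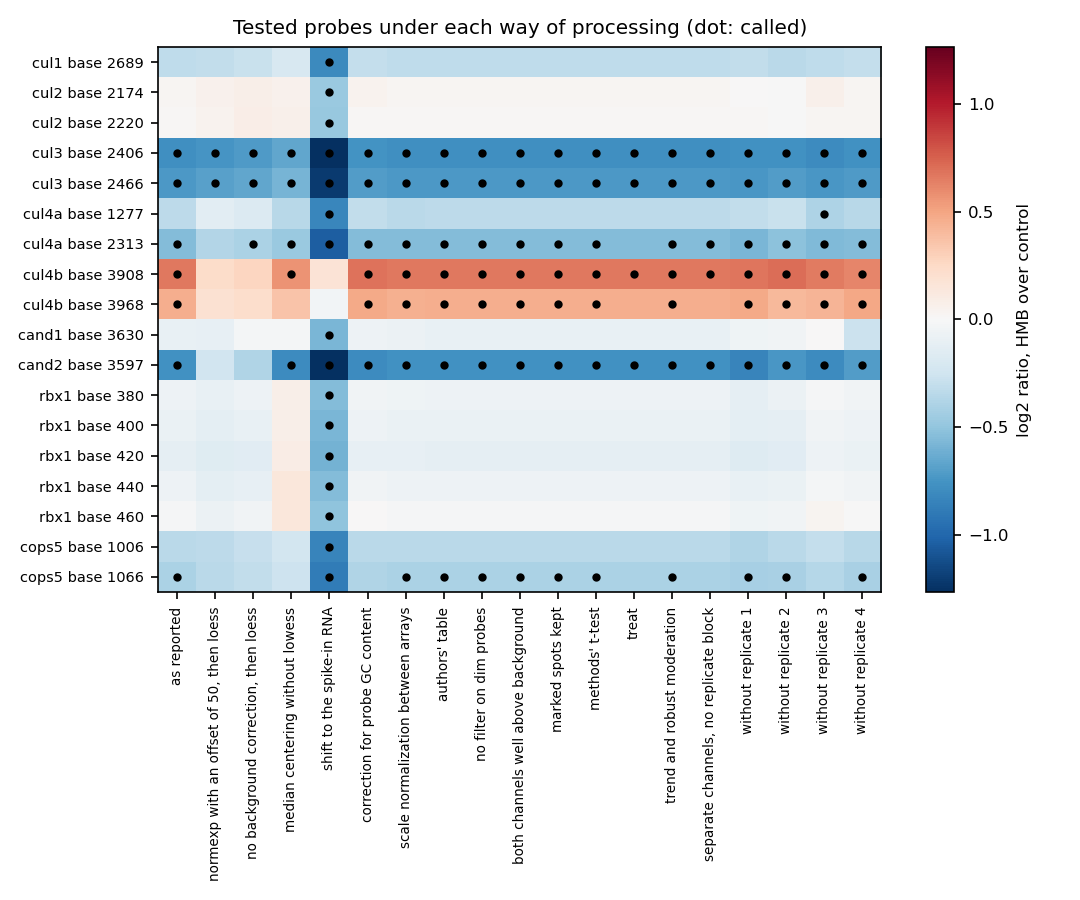
Log2 ratio of HMB over control (color scale) of the 18 tested probes in rows, under the reported processing and 18 alternatives in columns, with a black dot where the probe was called. Both *cul3* rows carry a dot in every column, and the spike-in column, which moved the median of all probes by -0.49, carries dots in 16 of 18 rows.

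The other genes of the pathway were taken from lists by function, which held 67 symbols, of which 53 were on the array and 46 were tested. The lists hold an older and a newer symbol for some genes, so a symbol not found need not be a missing gene. Of these 46, 9 were called, 3 higher and 6 lower (19.6%, beside 28.6% of all symbols), and their median log2 ratio was -0.11. The genes *dcun1d2*, *dcun1d3*, *skp2*, *socs3*, *asb2*, *klhl3* and *dcaf8* were on the array and too dim to test.

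In the COP9 signalosome, 9 subunits other than *cops5* were tested and 0 were called by limma, beside 28.6% of all symbols. Their log2 ratios ran from -0.19 to 0.20, with a median of -0.09. On their brightest probes, 3 of them reached an unadjusted p under 0.05 in limma. An adjusted p under the threshold was reached by 1, *cops7a* (log2 ratio 0.20, limma, adjusted p = 0.0323). For these p thresholds the shares of all symbols were not counted. By the methods' t-test and by treat, 0 were called, beside 20.4% and 11.4% of all tested probes. *cul7* (-0.31) and *cul9* (0.32), further cullins, each had an adjusted p under 0.05 in limma but an FC below 1.3, and were not called.

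In the NEDD8 pathway, 4 of 10 tested genes were called (40%, beside 28.6% of all symbols), with a list median of -0.17. The methods' t-test called 3 of the 10 and treat 1, beside 20.4% and 11.4% of all tested probes. *nub1*, which directs NEDD8 and its conjugates to degradation, rose on all 4 arrays, with log2 ratios of 1.19, 1.21, 1.53 and 1.06 (mean 1.25, SD 0.20, n = 4; FC 2.38; limma, adjusted p = 0.000149). *senp8*, a protease that matures NEDD8 and removes it from proteins, was lower on all 4 arrays, with a mean of -0.63 (SD 0.25, n = 4; limma, adjusted p = 0.00391). That call was lost with treat, with normexp (-0.18) and without background correction (-0.28). The other *senp8* probe was called lower too (-0.57; limma, adjusted p = 0.00313).

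*nae1*, a subunit of the enzyme that activates NEDD8, fell by 0.54 (SD 0.11, n = 4; limma, adjusted p = 0.00145), a call lost with treat alone, while its partner *uba3* (-0.36) and *nedd8* itself (-0.23) were below 0 on all arrays and were not called. *dcun1d5*, a cofactor of NEDD8 transfer, fell by 0.43 (SD 0.18, n = 4; limma, adjusted p = 0.00743), a call lost under 7 alternatives, among them leaving out replicate 3 (-0.35). *dcun1d1*, of the same family, was not called on its brightest probe (-0.05, SD 0.09, n = 4; limma, adjusted p = 0.551), whose sign changed without background correction (0.027) and with median centering (0.019). Of its 4 probes, 1 was called lower (-0.43; limma, adjusted p = 0.00298).

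Among adaptors, *skp1*, which links F-box receptors to *cul1*, was not called on its brightest probe (-0.34), but 2 of its 3 probes were called lower (both -0.40). *tceb1* (elongin C) and *ddb1* were both at -0.27 and were not called. In the list labeled inhibitors of ligase assembly, *glmn* (-0.37, an FC just under 1.3) and *commd1* (-0.10) were not called. That name is only a label, and the role of either gene in ligase assembly was not tested.

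Substrate receptors showed the widest range of the pathway lists, from -1.30 to 1.46, and 5 of 20 tested were called (25%, beside 28.6% of all symbols), with a list median of -0.05. Of these 20, *crbn* was not called on its brightest probe (mean 0.79, SD 2.61, n = 4). There replicate 4 was 4.70, while replicates 1 to 3 were -0.30, -0.65 and -0.58. The other *crbn* probe was called lower (-0.45, limma, adjusted p = 0.00992). *fbxo32*, the muscle F-box receptor of *cul1*, rose on all 4 arrays, with log2 ratios of 0.98, 1.45, 2.06 and 1.35 (mean 1.46, SD 0.45, n = 4; FC 2.75; limma, adjusted p = 0.000905). *fem1c*, a receptor of *cul2*, rose by 0.64 (SD 0.16, n = 4; limma, adjusted p = 0.00143), a call lost with treat, with normexp (0.29) and after the spike-in shift (0.15). The other *fem1c* probe was called higher too (0.86; limma, adjusted p = 0.000365).

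The muscle kelch proteins of *cul3* ligases fell on all arrays. *klhl41* gave -1.29, -1.45, -1.12 and -1.32 (mean -1.30, SD 0.14, n = 4; FC 2.45; limma, adjusted p = 5.91e-05). *klhl40* gave -1.26, -1.01, -0.96 and -1.39 (mean -1.16, SD 0.20, n = 4; FC 2.23; limma, adjusted p = 0.000209). Of the 7 myogenic markers given above, 5 were lower in the same cultures, while *myod1* (0.32) and *myog* (0.03) were not called.

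*rhobtb1*, another BTB protein that binds *cul3*, was called at -0.50 (SD 0.34, n = 4; limma, adjusted p = 0.0215). That call was lost under 8 of 18 alternatives, among them leaving out replicate 1 (-0.42), replicate 2 (-0.39) or replicate 3 (-0.54). Of the 4 *rhobtb1* probes, 2 were called lower (-0.50 and -0.46), while those at -0.19 and -0.11 were not called. The other *cul3* receptors tested, *keap1*, *klhl12*, *klhl20*, *spop* and *rhobtb3*, had log2 ratios from -0.29 to 0.13 and were not called.

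**Figure D4:**
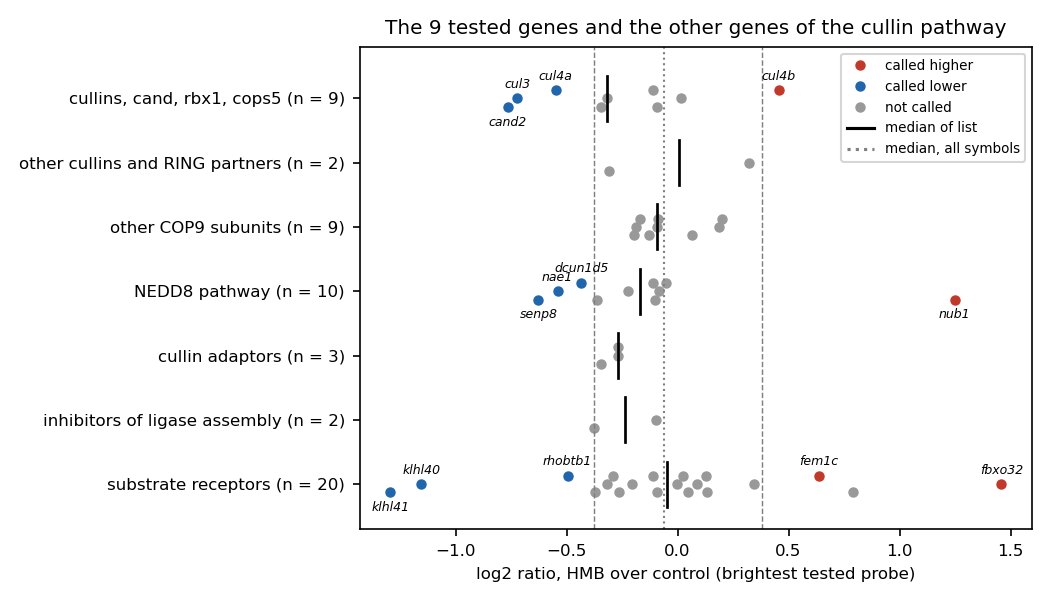
Log2 ratio of HMB over control (x axis) for the brightest tested probe of the 9 tested genes (top row) and of the genes in each pathway list (rows, with the number tested). Red and blue points are called higher and lower and are named, black ticks are list medians, dashed lines mark an FC of 1.3, and the dotted line is the median of all symbols (-0.06). *nub1* and *fbxo32* lie farthest to the right, *klhl41* and *klhl40* farthest to the left.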

How the data were processed

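The authors isolated RNA from ESC, labeled it and hybridized it to Agilent horse arrays with 60-base probes. The intensity values deposited are background-subtracted, lowess-normalized signals of both dyes, with flags. The deposited log10 values are ratios of Cy5 over Cy3 by Feature Extraction (10.10.1.1 per the file headers). Feature Extraction replaced signals at or below background by a surrogate. The deposited flags and annotation columns (unit other) gave background calls, names and EquCab1 positions. Log10 ratios were turned into log2. Probes were tested where Cy3, Cy5 or both passed the scanner's background flag on each of the 4 arrays, with an unmarked ratio on at least 3. Ratios were tested against 0 with limma 3.58.1 in R 4.3.3 (intercept, empirical Bayes, Benjamini-Hochberg over all tested probes), tested on simulated data. A gene is given by its brightest tested probe. All probes of the members are named, and of each pathway list the called genes with the largest change, up to 3 a direction, and *dcun1d1*. A few further genes were named after their values were seen. Members, lists and tests were chosen with earlier results of these data known. The labels do not say whether replicates were separate cultures of 1 animal's cells, so p-values measure the spread between these samples, which may be technical. Since the paper selected a culture from those of all horses, the spread between animals may be absent. The number of arrays limits the precision. The array symbols were checked in RefSeq (TB-T2T), which holds 10 of 10 members. Alternatives were another background correction (normexp with an offset of 50, or none), another centering, a spike-in shift, GC correction or scaling. The others were another filter or test, the authors' table, the mean of a gene's probes, and leaving out each replicate.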

Additional observations from a re-analysis of the deposited data

Results flagged for a closer look

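Among the 34 probes examined for a replicate that stood apart (the 24 probes of the members and 10 of named pathway genes), 4 were found, and chance gives about 1 in 20. The *cul3* probe at base 2406 had its highest log2 ratio in replicate 3 (-0.71), with the other replicates between -0.80 and -0.79. For the *cul4b* probes that were not above background, replicate 2 stood apart at base 366 (-0.68) and at base 370 (-1.04), and replicate 3 at base 367 (0.77). At bases 366 and 367 the ratios of the other replicates are exactly 0 in the deposited files, with surrogate signals, so these values carry no information on the replicates. Among the 28 tested probes, 1 was found.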

How the results depend on the processing

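With normexp, 2 member probes, 1 member gene and 3539 of all probes were called, and without background correction 3, 2 and 4440, compared with 7, 4 and 7046 as reported. The shift to the spike-in RNA, which moved the median of all probes by -0.49, gave 16, 8 and 18570, and 38 of the other pathway genes in place of 9. Treat gave 4, 2 and 2822, and 4 pathway genes. Of the probes called, 42.5% were higher as reported, 55.0% with normexp, 60.1% without background correction, 6.72% after the spike-in shift and 54.6% with treat. Leaving out each replicate gave 6641 to 7155 probes, 7 to 7 member probes, 4 to 4 member genes and 7 to 12 pathway genes. Without replicate 3, the *cul4a* probe at base 1277 was called and the *cops5* probe at base 1066 was not.

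The sign changed after the spike-in shift at *cul2* bases 2174 (-0.46) and 2220 (-0.47) and *cul4b* base 3968 (-0.033). It changed with median centering at *rbx1* bases 380 (0.071), 400 (0.074), 420 (0.098), 440 (0.14) and 460 (0.14), and with the GC correction at base 460 (0.0057). The *dcun1d1* sign changed without background correction (0.027) and with median centering (0.019). Leaving out 1 replicate changed it at *cul2* bases 2174 (-3.77e-05 to 0.064) and 2220 (-0.0054 to 0.023), *cand1* (-0.27 to 0.0093) and *rbx1* base 460 (-0.057 to 0.037). None of these probes except *cul4b* base 3968 was called as reported. The spike-in shift takes the same value off every ratio of an array and moved the median of all probes by -0.49. Means above 0 by less than that therefore changed sign. The cause of the other changes was not tested. Of the 324 values of member probes under alternatives, 282 kept direction and side of the threshold, 20 lost a call and 12 gained one. The sign changed in 13, of which 1 is among the lost and 2 among the gained calls. Separate channels with no replicate block leave out the pairing of the channels on an array. Under that setting, 5 member probes and 3 member genes were called, beside 21.3% of all tested probes. Low signal limits *cul4b* and *cul5*, and partly *cand2*.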
